A study of Mus musculus with 6 samples.

Results

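The genes described here make cholesterol and fatty acids, or set how much of them a mouse embryonic stem cell makes. They were listed by name from the mevalonate and sterol pathway, its SREBP regulators, fatty acid synthesis and the oxysterol hydroxylase Cyp7b1, and every array probe annotated with one of their symbols was taken. Of 29 listed genes, 26 had a probe, 43 probes in all of 45281 on the array. Acat2, Fdft1 and Hmgcs1 were not analysed here for want of an annotated probe. The filter asked for detection, at a p below 0.05, on 3 or more of the 6 arrays. It left 30 probes of 21 genes, and 11600 genes were tested in all.

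In 3 samples the cells carried a vector for a short hairpin RNA (shRNA) that targets Chd1, an ATP-dependent chromatin remodeller, and in 3 samples a control vector. All had been electroporated with pHYPER vectors, selected with puromycin for 48 h from 24 h after transfection, and grown with serum and leukemia inhibitory factor on mouse embryonic fibroblasts made unable to divide by mitomycin C. The content of the control vector, and the cultures behind the replicates of a group, are not stated in the labels, so p-values cover only the spread between these samples, which may be technical. The arrays of each group sat side by side on 1 chip, and chip position cannot be told apart from group.

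Cholesterol is built from acetyl-CoA through mevalonate, farnesyl diphosphate, squalene and lanosterol. When sterols in the endoplasmic reticulum run low, SCAP carries the membrane-bound factor SREBP2 (gene Srebf2) to the Golgi, where proteases release the part that activates the genes of this pathway. INSIG proteins hold SCAP back when sterols are plentiful, and SREBP1 (gene Srebf1) acts mostly on fatty acid genes. Oxysterols, which are oxidised cholesterol, also restrain SREBP2 processing and activate the LXR receptors, and CYP7B1 hydroxylates oxysterols.

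Chd1 shRNA arrays detected 16831 ± 553 probes and control arrays 15833 ± 147.4 (mean ± SD, n = 3 each). Probe ILMN_1258834 for the targeted gene Chd1 read 5.96, 5.95 and 5.29 in Chd1 shRNA replicates 1, 2 and 3, against 7.70, 8.81 and 6.91 in control replicates 1, 2 and 3, in normalized log2 intensity, the scale of all levels below. The groups did not overlap on 3 of the 4 Chd1 probes, and the log2 fold change of ILMN_1258834 was -2.07 (SE 0.43, adjusted p = 0.196 by limma). The other Chd1 probes gave smaller changes, -1.92 (ILMN_1254296, SE 0.39), -1.15 (ILMN_1246790, SE 0.19) and -0.11 (ILMN_2958382, SE 0.23). With the mean of all kept probes Chd1 was at -1.31. Stem cell markers were present, with 20 of 21 listed genes past the filter. Fibroblast markers also passed for 21 of 30, and their mean log2 level was 7.97, 8.87 and 8.98 in Chd1 shRNA replicates 1, 2 and 3, against 7.63, 7.46 and 8.56 in control replicates 1, 2 and 3.

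No sterol or fatty acid gene passed an adjusted p of 0.05 by limma, and neither did any other gene (0% of 11600). At an unadjusted p under 0.05, Nsdhl and Srebf2 were lower and Cyp7b1 was higher in Chd1 shRNA cells, 2 and 1 of the 21 genes, where 6.33% of all genes tested were lower and 4.6% were higher. The groups did not overlap with Chd1 shRNA lower for 1 of the 21 (Nsdhl), beside 9.18% of all genes, and with Chd1 shRNA higher for 2 (Insig2 and Cyp7b1), beside 6.87%. With 21 genes these counts are near the shares of all genes. The sterol enzymes mostly had small differences of 1 sign, and they varied widely among the control arrays.

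**Figure D1:**
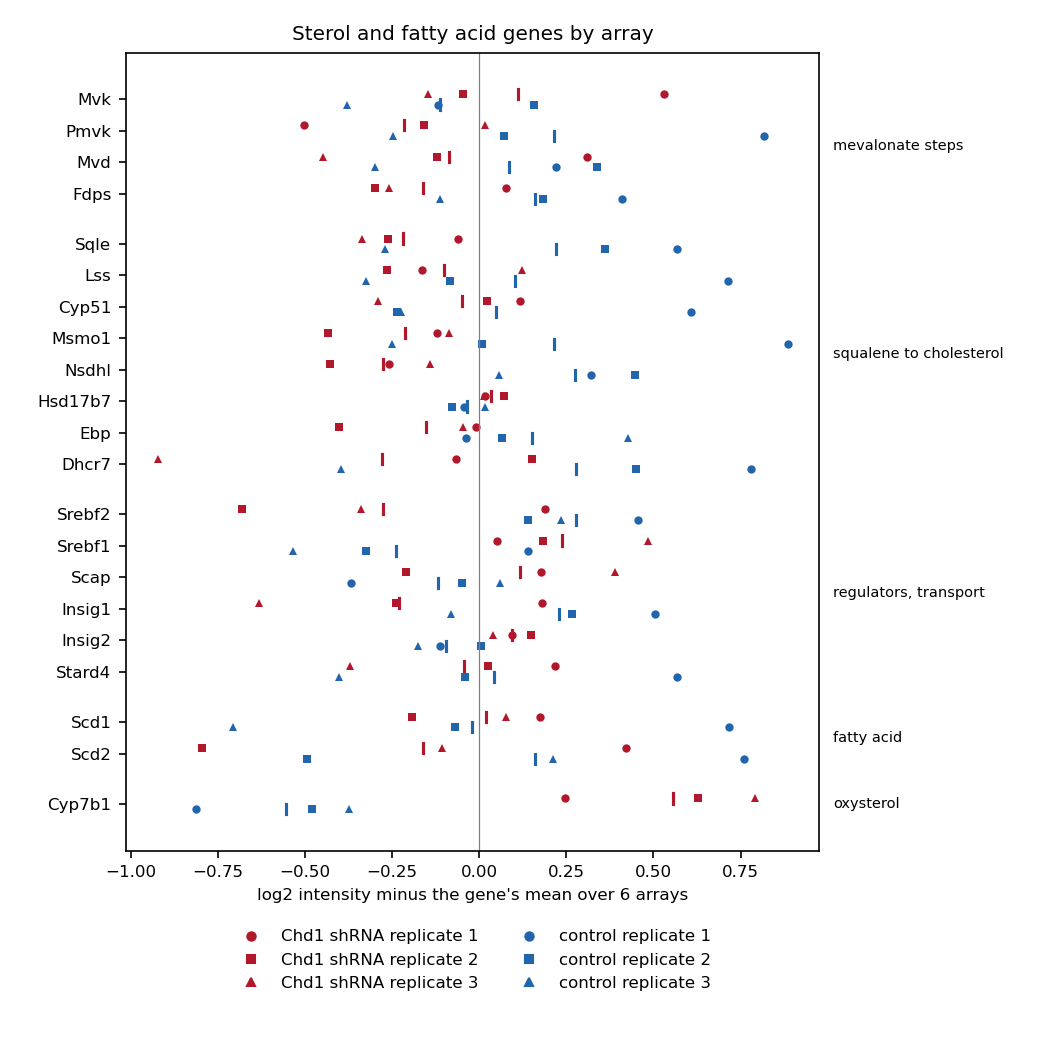
Normalized log2 intensity of each of the 21 genes on each array, as the deviation from the gene's mean over 6 arrays (x axis), with Chd1 shRNA arrays in red above control arrays in blue and short bars for group means. Control replicate 1 (blue circle) lies to the right for most sterol enzymes, and Cyp7b1 is separated by group.

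The enzymes that lead from acetyl-CoA to farnesyl diphosphate were represented by 4 tested genes, 3 of them with values below 0. Fdps, which joins isoprene units into farnesyl diphosphate, read 11.49, 11.12 and 11.16 in Chd1 shRNA replicates 1, 2 and 3, against 11.83, 11.60 and 11.31 in control replicates 1, 2 and 3. Only Chd1 shRNA replicate 1 reached into the control range, and the log2 fold change was -0.32 (SE 0.20, 95% interval -0.78 to 0.14). A dimmer Fdps probe, ILMN_1232741, gave -0.23 (SE 0.27).

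Pmvk encodes phosphomevalonate kinase, which adds the second phosphate to mevalonate. It read 5.88, 6.22 and 6.40 in Chd1 shRNA replicates 1, 2 and 3, against 7.20, 6.46 and 6.14 in control replicates 1, 2 and 3. Control replicate 1 stood above all other arrays and control replicate 3 lay inside the Chd1 shRNA range, with a log2 fold change of -0.43 (SE 0.28). Mvd, which decarboxylates mevalonate diphosphate, gave -0.17 (SE 0.25), and this value turned positive in 3 of 17 alternatives. Mvk, the first mevalonate kinase, gave 0.22 (SE 0.24), so the direction was not shared by all steps. Idi1, the isopentenyl diphosphate isomerase, was detected on 1 Chd1 shRNA array and 0 control arrays and was not tested.

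The steps from squalene to cholesterol had 8 tested genes, 7 with values below 0 and a median log2 fold change of -0.37. Nsdhl, a dehydrogenase that takes part in removing methyl groups from the sterol ring, read 6.33, 6.15 and 6.44 in Chd1 shRNA replicates 1, 2 and 3, against 6.90, 7.03 and 6.64 in control replicates 1, 2 and 3 on probe ILMN_2594525. Every Chd1 shRNA array was below every control array, at 68.3% of the control level, with a log2 fold change of -0.55 (SE 0.18, 95% interval -0.97 to -0.14, unadjusted p = 0.0151, adjusted p = 0.351 by limma). Other kept Nsdhl probes did not share this separation: ILMN_2594521 gave -0.09 (SE 0.18) and ILMN_2725402 gave 0.07 (SE 0.20). With the mean of the 3 kept probes in place of the brightest, the value of Nsdhl was -0.19.

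Sqle encodes squalene epoxidase, a rate-limiting enzyme of the pathway. It read 9.64, 9.44 and 9.37 in Chd1 shRNA replicates 1, 2 and 3, against 10.27, 10.07 and 9.43 in control replicates 1, 2 and 3 on probe ILMN_2737163. Control replicates 1 and 2 were above every Chd1 shRNA array and control replicate 3 was among them. The log2 fold change was -0.44 (SE 0.24, 95% interval -0.98 to 0.10), and a second Sqle probe, ILMN_2600348, gave -0.37 (SE 0.24).

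Msmo1, the sterol methyl oxidase, had the same layout, with 7.90, 7.59 and 7.93 in Chd1 shRNA replicates 1, 2 and 3, against 8.91, 8.03 and 7.77 in control replicates 1, 2 and 3. Its log2 fold change of -0.43 (SE 0.29) was -0.09 without control replicate 1. Dhcr7, which reduces the last precursor to cholesterol, read 5.82, 6.04 and 4.96 in Chd1 shRNA replicates 1, 2 and 3, against 6.67, 6.34 and 5.49 in control replicates 1, 2 and 3. Chd1 shRNA replicate 3 was the lowest array and control replicate 1 the highest, with an overlap between them and a log2 fold change of -0.56 (SE 0.36, 95% interval -1.38 to 0.27).

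Ebp, the sterol isomerase, gave a log2 fold change of -0.30 (SE 0.20). Its highest array was control replicate 3 at 8.21, unlike the other enzymes. Lss, which cyclises squalene epoxide to lanosterol, gave -0.20 (SE 0.28), and Cyp51, the lanosterol demethylase, -0.10 (SE 0.26). Both turned positive without control replicate 1, to 0.10 for Lss and 0.18 for Cyp51. Hsd17b7, a keto-reductase of sterol demethylation, had the value nearest 0 among the tested enzymes, at 0.07 (SE 0.16, 95% interval -0.29 to 0.42). Tm7sf2, a sterol reductase, was detected on 0 of 6 arrays. Sc5d, the lathosterol desaturase, was detected on 2 Chd1 shRNA arrays and 0 control arrays, at a mean of 4.84 in Chd1 shRNA arrays against 4.38 in control arrays. Its Chd1 shRNA arrays, at 4.57, 5.12 and 4.82, were all above the control arrays, at 4.31, 4.34 and 4.47. The control level is only a bound, at least 1.00-fold lower than the Chd1 shRNA level, which leaves the size of the difference unmeasured.

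Over the 12 tested sterol enzymes, 10 values were below 0 with a median log2 fold change of -0.31, beside 49.8% of all genes below 0 and a median of 0.0012. With no detection filter, 10 of 15 enzymes were below 0 and the median was -0.20. With each array scaled to its median in place of quantile normalization, 6 of the 12 were below 0 and the median was -0.06, while that of all genes was 0.21. Control replicate 1 was the highest of the 6 arrays for 7 of the 12 enzymes, and for 21.2% of all genes. It exceeded control replicate 3 for 10 of the 12, by a median of 0.68. Control replicate 3 was below the Chd1 shRNA mean for 9 of the 12. The median range among control arrays was 0.74 for the enzymes and 0.47 for all genes, and among Chd1 shRNA arrays 0.39 for the enzymes and 0.44 for all genes. Without control replicate 1 the median of the 12 log2 fold changes was -0.12, and without control replicate 3 it was -0.44.

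**Figure D2:**
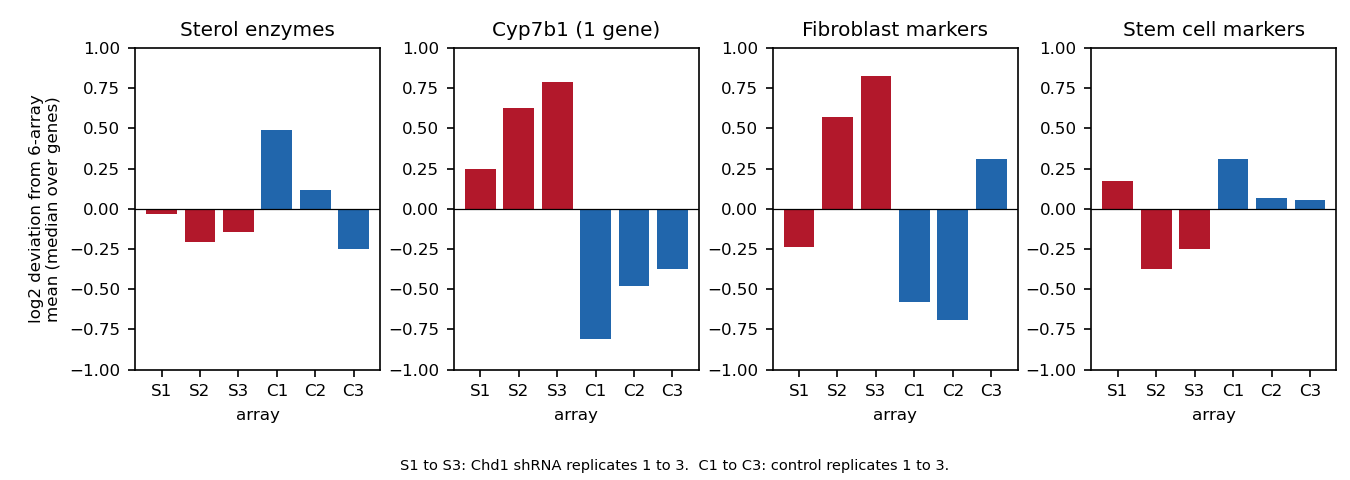
Deviation from the 6-array mean on each array (y axis, log2, median over genes, or the single gene for Cyp7b1), Chd1 shRNA replicates in red (S1 to S3) left of control replicates in blue (C1 to C3). The sterol enzymes run from 0.49 in control replicate 1 to -0.25 in control replicate 3, while Cyp7b1 is above 0 on all Chd1 shRNA arrays and below 0 on all control arrays.

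The enzymes' array values were set beside the fibroblast and stem cell markers, since fewer cells of a type and less RNA per cell cannot be told apart in bulk samples. The median deviation of the enzymes from their 6-array means was -0.03, -0.21 and -0.14 in Chd1 shRNA replicates 1, 2 and 3, against 0.49, 0.12 and -0.25 in control replicates 1, 2 and 3. The fibroblast markers read -0.24, 0.57 and 0.83 in Chd1 shRNA arrays, against -0.58, -0.69 and 0.31 in control arrays, with 19 of 21 values above 0. Chd1 shRNA replicate 1 had the least fibroblast signal and the highest enzyme values of its group, and control replicate 3 the most fibroblast signal and the lowest enzyme values. By median deviation the other arrays did not follow that order. Chd1 shRNA replicate 3 had more fibroblast signal and higher enzyme values than Chd1 shRNA replicate 2. Control replicate 2 had less fibroblast signal and lower enzyme values than control replicate 1. The mean log2 level of the enzymes was 7.88, 7.71 and 7.68 in Chd1 shRNA replicates 1, 2 and 3. It was 8.32, 8.03 and 7.73 in control replicates 1, 2 and 3. By that mean Chd1 shRNA replicate 3 was below Chd1 shRNA replicate 2. The stem cell markers read 0.18, -0.38 and -0.25 in Chd1 shRNA arrays, against 0.31, 0.07 and 0.05 in control arrays. Of their log2 fold changes 17 of 20 were below 0, with a median of -0.37, so a shift below 0 was not particular to the enzymes. With the fibroblast signal of each array in the model, the median of the 12 enzymes was -0.06, Nsdhl was at -0.42 and Sqle at -0.09. In that model the targeted gene Chd1 was at -1.38, beside -2.07 without it. The fibroblast signal was mostly higher in Chd1 shRNA arrays, so with 6 arrays this model cannot fully separate it from group.

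Promoters of the enzymes are shown because these genes share a known architecture, in which SREBP binds beside NF-Y (the CCAAT box) and Sp1 (the GGGCGG box). RefSeq windows of 300 bases (250 before to 50 after the start, build GRCm38.p6) were matched by symbol for 22 of the 29 listed genes, 15 of them sterol enzymes, and searched on both strands. CCAAT was found in 14 of the 15 enzyme promoters, against 43.6% of tested genes with a window. GGGCGG was found in 14 of 15, against 69.7%. The sterol element core TCACNCCAC was found in 1 of the 15, against 1.43% of tested genes, and no match says only that these letters are not in this window. That promoter was of Hmgcs1, the synthase before the mevalonate step, whose stretch at chr13:119690199-119690237 (plus strand, TCACNCCAC in capitals) is given first. The others hold the last CCAAT box before the start, boxes after it not considered, for the 4 tested enzymes with a window and the smallest p, and for Srebf2, with CCAAT (read ATTGG where it lies on the opposite strand) and GGGCGG in capitals. They lie at chrX:72918476-72918520 (plus strand) for Nsdhl, chr7:143830140-143830194 (plus) for Dhcr7, chrX:8193538-8193592 (minus) for Ebp, chr3:89454380-89454434 (plus) for Pmvk and chr15:82147109-82147163 (plus) for Srebf2. These stretches were chosen after their genes' values were seen.
Hmgcs1: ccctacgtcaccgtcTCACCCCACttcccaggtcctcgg
Nsdhl: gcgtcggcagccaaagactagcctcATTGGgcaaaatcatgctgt
Dhcr7: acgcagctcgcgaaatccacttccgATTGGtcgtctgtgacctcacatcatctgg
Ebp: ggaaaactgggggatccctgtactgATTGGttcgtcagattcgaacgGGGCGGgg
Pmvk: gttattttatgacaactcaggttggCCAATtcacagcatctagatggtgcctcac
Srebf2: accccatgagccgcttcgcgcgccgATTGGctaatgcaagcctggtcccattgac

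The regulators begin with the SREBP genes. Srebf2 read 7.74, 6.87 and 7.21 in Chd1 shRNA replicates 1, 2 and 3, against 8.01, 7.69 and 7.78 in control replicates 1, 2 and 3 on probe ILMN_1223598. Chd1 shRNA replicate 1 lay among the control arrays, and replicates 2 and 3 lay below them. Over all 3 Chd1 shRNA arrays the level was 68.1% of control, a log2 fold change of -0.55 (SE 0.24, 95% interval -1.10 to -0.01, unadjusted p = 0.0476, adjusted p = 0.454 by limma). A second Srebf2 probe, ILMN_1234082, read 6.28, 6.29 and 6.25 in Chd1 shRNA arrays, against 6.96, 6.49 and 6.50 in control arrays. On that probe every Chd1 shRNA array was below every control array, with a log2 fold change of -0.37 (SE 0.19). The exact permutation test, two-sided, gave p = 0.1 there, and groups of 3 cannot give a lower one. With the fibroblast signal in the model Srebf2 was at -0.31.

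Srebf1 read 4.94, 5.08 and 5.38 in Chd1 shRNA replicates 1, 2 and 3, against 5.03, 4.57 and 4.36 in control replicates 1, 2 and 3. Its probe was detected on 3 Chd1 shRNA arrays and 1 control array, so it passed the filter through the group in which it was brighter, which favours a positive value. The log2 fold change was 0.48 (SE 0.22, 95% interval -0.03 to 0.99, adjusted p = 0.475 by limma).

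Insig1, itself an SREBP target, read 6.64, 6.22 and 5.82 in Chd1 shRNA replicates 1, 2 and 3, against 6.96, 6.72 and 6.38 in control replicates 1, 2 and 3. Chd1 shRNA replicate 1 overlapped the controls, and the log2 fold change was -0.46 (SE 0.25). The other kept Insig1 probes gave -0.24 (ILMN_2606693, SE 0.18) and 0.26 (ILMN_2895388, SE 0.20), the last detected on 2 Chd1 shRNA arrays and 1 control array.

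Insig2 read 7.51, 7.57 and 7.46 in Chd1 shRNA replicates 1, 2 and 3, against 7.30, 7.42 and 7.24 in control replicates 1, 2 and 3. The arrays did not overlap, but the difference was small, with a log2 fold change of 0.19 (SE 0.16). A second Insig2 probe, ILMN_2690256, read 5.41, 6.63 and 6.53 in Chd1 shRNA arrays, against 4.91, 4.67 and 6.37 in control arrays. Its high arrays were those with more fibroblast signal in each group, and its log2 fold change was 0.87 (SE 0.47). Whether fibroblast RNA contributes to that probe was not tested.

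Scap, the escort of the SREBPs, gave 0.24 (SE 0.21). Stard4, a cytosolic sterol carrier and SREBP2 target, gave -0.08 (SE 0.27), with its highest array again control replicate 1 at 6.75. Of the 6 regulator and transport genes 3 were below 0 and 3, Srebf1 among them, above 0, with a median log2 fold change of 0.05. Of the 5 genes detected at a p under 0.01 on all 6 arrays, 3 were below 0 and the median was -0.08.

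Fatty acid synthesis was thinly measured. Fasn, the fatty acid synthase, was detected on 1 Chd1 shRNA array and 1 control array, and Acaca, the acetyl-CoA carboxylase that commits carbon to the pathway, on 0 of 6 arrays, so neither was tested. A probe that is not above background gives only a bound on its gene.

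The desaturase genes Scd1 and Scd2, which introduce the double bond of oleate, passed the filter. Scd1 read 6.53, 6.16 and 6.43 in Chd1 shRNA replicates 1, 2 and 3, against 7.07, 6.28 and 5.65 in control replicates 1, 2 and 3. The control arrays spanned the Chd1 shRNA arrays on both sides, and the log2 fold change was 0.04 (SE 0.33, 95% interval -0.71 to 0.79). Scd2 read 6.13, 4.92 and 5.60 in Chd1 shRNA arrays, against 6.47, 5.22 and 5.92 in control arrays, a log2 fold change of -0.32 (SE 0.38). Both intervals include the -0.31 median of the sterol enzymes, and a difference between the fatty acid and the sterol genes was not tested.

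Cyp7b1 gave the largest difference of the 21 genes. The endoplasmic reticulum hydroxylase it encodes acts on oxysterols in the alternative pathway of bile acid synthesis. Unnormalized intensities were 188.3, 216.8 and 277.1 in Chd1 shRNA replicates 1, 2 and 3, against 145, 130.3 and 126.8 in control replicates 1, 2 and 3. Normalized levels were 6.58, 6.97 and 7.13 in Chd1 shRNA replicates 1, 2 and 3, against 5.53, 5.86 and 5.97 in control replicates 1, 2 and 3, and all Chd1 shRNA arrays were above all control arrays on both scales.

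The log2 fold change of Cyp7b1 was 1.11 (SE 0.21, 95% interval 0.63 to 1.59), 2.16-fold on the linear scale, with an unadjusted p of 0.000573 and an adjusted p of 0.177 by limma. It ranked 35 of the 11600 genes by p. The gene was included with this difference already known, so its test is not independent evidence. It has 1 probe, ILMN_2601215. Within each group Cyp7b1 was highest on the array with the most fibroblast signal, replicate 3 in both, and within the Chd1 shRNA arrays the order of the 2 measures was the same. Between groups, Chd1 shRNA replicate 1 (fibroblast level 7.97) had more Cyp7b1 signal than control replicate 3 (8.56). With the fibroblast signal in the model the log2 fold change was 0.86. Of 17 alternatives, it passed the threshold in 1, with array weights, at 1.18 and an adjusted p of 0.0481 by limma. The adjusted p over all alternatives lay between 0.0481 and 0.625.

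**Figure D3:**
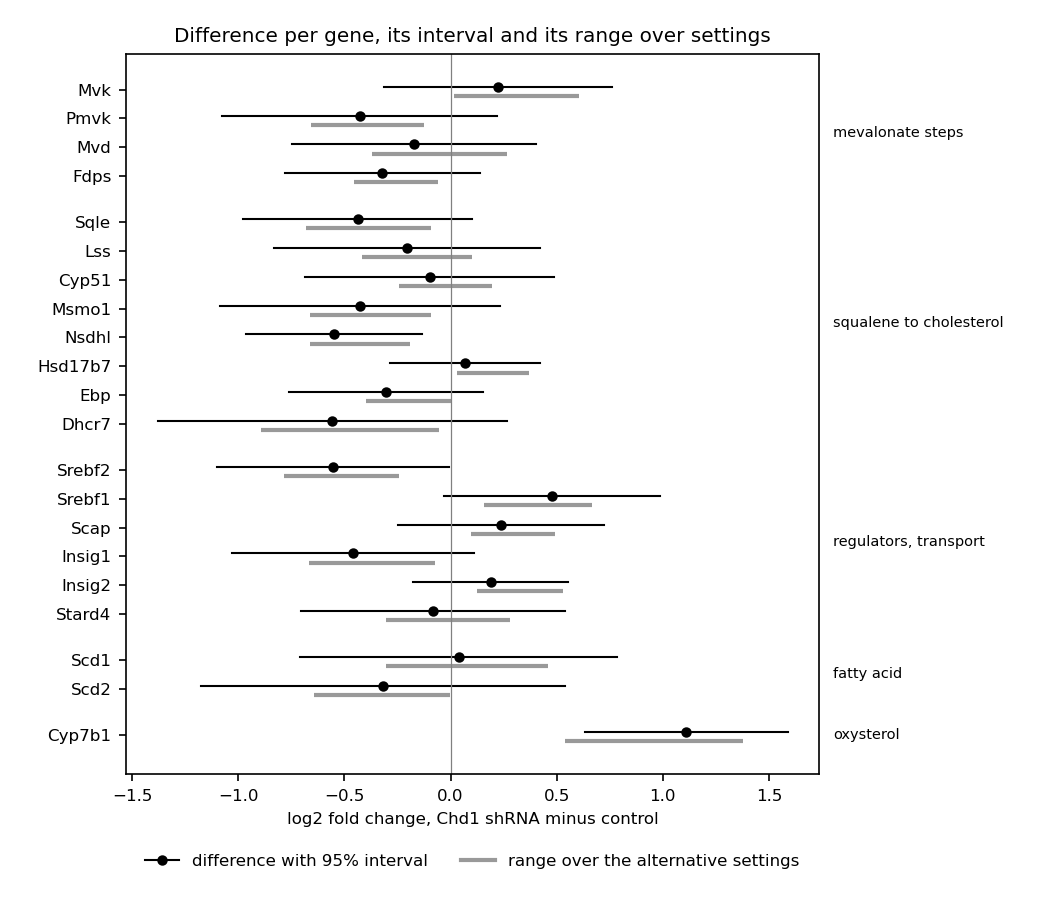
Log2 fold change, Chd1 shRNA minus control (x axis), of the 21 genes with 95% intervals from limma in black, and below each the range over the alternative settings in grey. The intervals of Nsdhl, Srebf2 and Cyp7b1 do not include 0, and the grey range of Cyp7b1 runs from 0.54 to 1.38.

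Further lipid genes were read from 6 lists. No gene in them passed an adjusted p of 0.05 by limma, as none did among all genes. Other oxysterol and bile acid enzymes, of which 6 of 14 were tested, had a median log2 fold change of -0.04 and values of both signs. Cyp11a1, the side-chain cleavage enzyme that starts steroid hormone synthesis, read 5.89, 5.62 and 5.26 in Chd1 shRNA replicates 1, 2 and 3, against 6.89, 6.71 and 6.66 in control replicates 1, 2 and 3. These groups did not overlap, with a log2 fold change of -1.16 (SE 0.20, unadjusted p = 0.000336, adjusted p = 0.177 by limma).

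Cyp27a1, a mitochondrial sterol hydroxylase that makes an oxysterol which CYP7B1 can use, read 6.21, 6.20 and 5.52 in Chd1 shRNA replicates 1, 2 and 3, against 4.97, 5.49 and 5.25 in control replicates 1, 2 and 3. Every Chd1 shRNA array was above every control array, with a log2 fold change of 0.74 (SE 0.24, unadjusted p = 0.0141, adjusted p = 0.343 by limma). Liver markers were near absent, since 5 of 6 did not pass the filter and Apoa2 averaged 4.69 in Chd1 shRNA and 5.11 in control arrays.

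The list of receptor genes, LXR targets and efflux genes was tested for 8 of 12, with a median of 0.07. These were Nr1h3, Rxra, Rxrb, Abcg4, Lpcat3, Abca2, Abca7 and Nceh1. The listed targets Abca1, Abcg1 and Mylip were not tested, so the median is not a measure of LXR target expression. Nr1h3, which encodes LXR alpha, gave 0.62 (SE 0.22), with the groups apart and its probe detected on 3 Chd1 shRNA arrays and 1 control array. Like Nr1h3, the lipid transporter gene Abca2 passed the filter through the Chd1 shRNA arrays, which favours a positive value. Abca2 gave 0.45 (SE 0.25) and was detected on 3 Chd1 shRNA arrays and 2 control arrays. Abca7, another transporter of that family and named after its values were seen, was detected on all 6 arrays and gave -0.40 (SE 0.17, unadjusted p = 0.0481, adjusted p = 0.454 by limma), with every Chd1 shRNA array below every control array. Genes of sterol uptake, transport and esterification were tested for 12 of 20, with a median of 0.12. The lowest median under the alternatives was 0.03, with detection at a p under 0.01 on all 6 arrays. The highest was 0.36, with median scaling, which moved the median of all genes to 0.21. The lipoprotein receptor gene Lrp8 gave 0.42 (SE 0.21) and Osbpl5, an oxysterol-binding protein relative, 0.38 (SE 0.33). Each was detected on 3 Chd1 shRNA arrays and 2 control arrays, so the limit given for Abca2 holds for both.

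The list of SREBP processing genes also held transcription factor genes, with Nfyb, Nfyc, Sp1, Usf1 and Usf2 among those tested. Of its 17 genes 11 were tested, with a median of -0.07 over both kinds and values of both signs. Sec24b, a coat protein of the vesicles that leave the endoplasmic reticulum, gave 0.61 (SE 0.17, unadjusted p = 0.00701, adjusted p = 0.281 by limma), and the transcription factor gene Usf2 gave 0.46 (SE 0.20). In both the groups did not overlap. The list of other isoprenoid branch genes was tested for 12 of 16, with a median of -0.02. It also held genes outside such branches, with Lbr at -0.16, Erg28 at -0.06, Cyb5r3 at -0.03 and Cyb5b at 0.13. Dhdds of dolichol synthesis, detected on 3 Chd1 shRNA arrays and 2 control arrays, was at 0.49 (SE 0.24). Like Abca2, it passed the filter through the Chd1 shRNA arrays, which favours a positive value. The farnesyltransferase subunit gene Fntb was at -0.35 (SE 0.19).

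Other genes of fatty acid synthesis, elongation and desaturation were tested for 24 of 35, with 13 values below 0 and a median of -0.06. Fads2, a desaturase of polyunsaturated fatty acids, read 5.74, 5.26 and 5.18 in Chd1 shRNA replicates 1, 2 and 3, against 6.04, 5.90 and 6.11 in control replicates 1, 2 and 3. The groups did not overlap and the log2 fold change was -0.62 (SE 0.20, unadjusted p = 0.0133, adjusted p = 0.341 by limma). Acsl6, an acyl-CoA synthetase gene, gave -0.58 (SE 0.30).

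**Figure D4:**
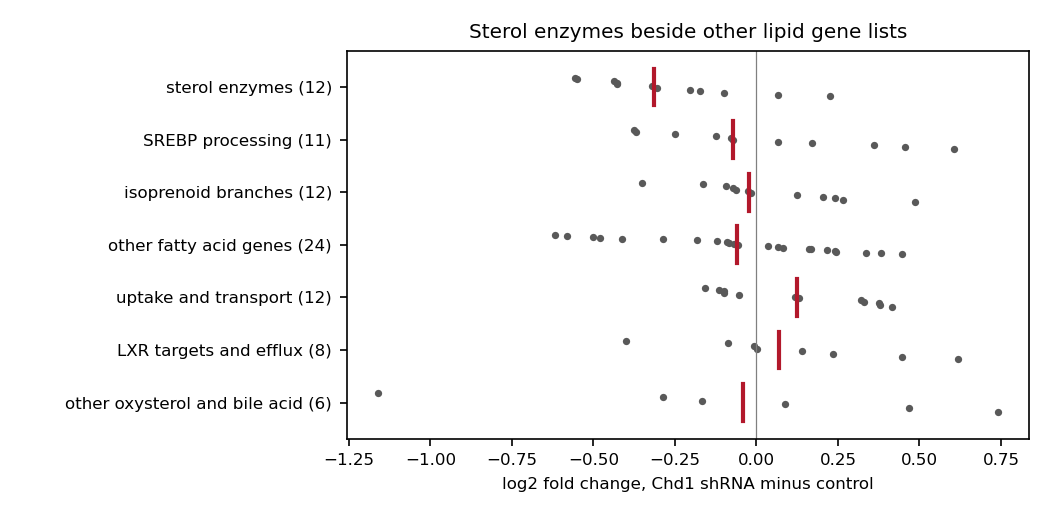
Log2 fold change, Chd1 shRNA minus control (x axis), of each tested gene (grey points) in the sterol enzyme group and 6 other lipid gene lists, with the number of genes in brackets and the median as a red bar. The medians run from -0.31 for the sterol enzymes to 0.12 for uptake and transport.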

How the data were processed

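RNA of mouse embryonic stem cells, 3 Chd1 shRNA and 3 control samples, was measured on 1 Illumina BeadChip with 1 array per sample. Samples were grouped by the transfection label and numbered in accession order, which pairs none of them. Members and gene lists were chosen with earlier results of these data known.

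The deposited unnormalized table holds a linear intensity per probe and array, summarised with GenomeStudio per the submitters' processing notes, and a detection p-value per probe, per the file headers. The deposited processed table holds linear intensities with nearly equal array medians. Its method is not given here by any label or header, and it served as an alternative.

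Intensities were background-corrected by normal-exponential convolution (offset 16), quantile-normalized and log2-transformed (neqc steps, limma 3.58.1, R 4.3.3). Dim probes thereby show smaller differences than they would without the offset. The filter kept the 16018 of 45281 probes that 3 or more of the 6 arrays detected (p below 0.05). A gene was represented by its kept probe with the highest mean. Of all probes, 34885 had 1 platform gene symbol, 18 had several and 10378 had none. Differences (Chd1 shRNA minus control) were tested with lmFit and eBayes, with Benjamini-Hochberg adjustment over 11600 genes (9507 named genes and 2093 unnamed probes) and a threshold of 0.05. Single probes came from a fit of all kept probes. The fit was tested on simulated data with planted changes larger than those of the sterol enzymes, so that test does not cover differences as small as theirs. Alternatives changed the offset, background correction, scaling, filter, probe choice, variance model and array weights, added the fibroblast signal as a covariate, or left out 1 array. Every member past the filter is named, as are the 2 genes with the largest absolute difference in each other list. Some genes of these pathways are not reported here. The number of arrays limits the precision.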

Additional observations from a re-analysis of the deposited data

How the results depend on the processing

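No paired analysis was possible because the labels give no replicate numbers that pair the arrays. As reported by limma, 0 genes passed the adjusted threshold, with 734 lower and 534 higher at an unadjusted p under 0.05. The count past the threshold was 2 with median scaling, 1 with 75th percentile scaling, 18 with an intensity trend and robust variance and 37 with array weights, where Cyp7b1 made 1 called gene of the set. Left-out arrays gave 0 in each case. Median scaling moved the median of all genes to 0.21. With it 152 genes were lower and 1537 higher at an unadjusted p under 0.05. With it, too, the regulator and transport median was 0.32 (0.11 above that of all genes) and the sterol enzyme median -0.06 (-0.27 relative to all genes). Left-out arrays gave medians from -0.44 to -0.12 for sterol enzymes, -0.08 to 0.15 for regulators and transport, and -0.32 to 0.19 for the 2 fatty acid genes, and other alternatives -0.39 to -0.06, -0.08 to 0.32 and -0.31 to 0.17. Chd1 stayed between -2.52 and -1.57 with an array left out and between -2.29 and -1.18 otherwise. Of 355 values of single genes under alternatives, 19 changed sign, in 6 genes, and 15 genes never did. With median scaling Mvd was at 0.14, Lss at 0.089, Cyp51 at 0.20, Ebp at 0.0050 and Stard4 at 0.15. With the fibroblast covariate Mvd was at 0.27, Cyp51 at 0.11 and Stard4 at 0.28. Without Chd1 shRNA replicate 3 Mvd was at 0.0085, Cyp51 at 0.02 and Stard4 at 0.08. Without control replicate 1 Lss was at 0.10, Cyp51 at 0.18 and Stard4 at 0.18. Scd1 was at -0.0080 with no background correction, -0.0078 with the authors' table, -0.13 with array weights, -0.04 without Chd1 shRNA replicate 1 and -0.30 without control replicate 3. Left-out arrays gave from -0.37 to 0.0085 for Mvd, -0.42 to 0.10 for Lss, -0.24 to 0.18 for Cyp51 and -0.30 to 0.41 for Scd1. The cause was not tested. Members lower at an unadjusted p under 0.05 by limma fell from 2 to 0 with median scaling or the fibroblast covariate. The count was also 0 without Chd1 shRNA replicate 2 or control replicate 2. It was 5 of 21 with array weights, beside 1275 of 11600 genes. Without control replicate 3 it was 6 of 21, beside 999 of 11600 genes. Over all genes, array weights gave 1275 lower and 1297 higher, no filter 1318 lower and 1002 higher, and left-out arrays from 423 to 999 lower and from 276 to 1053 higher. Signal over background limits what can be said of the 5 genes with no kept probe. Scd2, Dhcr7 and Scd1 had the widest intervals of the 21 genes tested.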
